A study of Homo sapiens with 10 samples.

Results

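The integrated stress response and the unfolded protein response were described through 38 genes in DU145 cells, an established human prostate cancer line that came from a brain metastasis. The genes were chosen by name, from the kinases that start the response, the ATF4 arm, and the IRE1 and ATF6 arms. All 38 had 1 row each among the 13527 features of the deposited table, and all passed the filter on low counts. The lowest level of any of them in any library was 1.49 CPM (counts scaled to library size with edgeR's TMM factors), so none entered the table through 1 group alone. The study compared DU145 cells carrying a control hairpin (shCon, genotype label Scramble, 3 RNA-seq libraries) with DU145 cells carrying a hairpin against the transcription factor gene SOX4 (shSOX4, labelled as knockdown, 3 libraries), both untreated and grown in DMEM with serum. Whether each line was a clone or a pool, and how many hairpins were used, was not given in these sources. Another 4 libraries, ATAC-seq of cells with an empty vector or with SOX4 overexpression, were not analysed here.

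When proteins misfold in the endoplasmic reticulum, or when amino acids or haem run short, one of several kinases phosphorylates the translation factor eIF2alpha. General translation then slows, while the mRNA of ATF4, a bZIP transcription factor, is translated more. ATF4 switches on genes for amino acid supply, redox balance and its own feedback. In the endoplasmic reticulum, IRE1 (gene ERN1) splices XBP1 mRNA and ATF6 is cut from the membrane, and both then raise chaperones and degradation factors. The activity of kinases, the translation of ATF4, the splicing of XBP1 and the cleavage of ATF6 leave no direct trace in counts per gene, so the values below are transcript levels only.

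SOX4, the targeted gene, stood at 12.9, 10.1 and 8.48 CPM in shCon 1, 2 and 3 and at 4.55, 6.44 and 6.01 CPM in shSOX4 1, 2 and 3. Every shSOX4 library was under every shCon library, and the log2 fold change was -0.89 (SE 0.236, edgeR-adjusted p = 0.0111). On leaving out shCon 1 it came to -0.71, short of the threshold (edgeR-adjusted p = 0.0598). Total counts ran from 31189910 to 43361609 per library. The libraries shCon 3 and shSOX4 1 stood apart from the other 4 on the second principal component (16.5% of the variance, scores -25.7 and -30.4 against 6.0 to 20.7), so results are also given without both. These libraries were picked after their values were seen. Leaving them out takes away spread within the groups, so calls gained in that fit are no independent support. All 5 epithelial markers were measured, with a summed level of 2958 to 4388 CPM in shCon and 6813 to 7706 CPM in shSOX4, where the keratin genes KRT8 and KRT18 rose and CDH1 and EPCAM fell. Of 5 markers of luminal prostate cells with an active androgen receptor, 2 had a row. They summed to 8.37 to 14.8 CPM in shCon and 9.15 to 14.1 CPM in shSOX4. Of these 2, 1 rose (log2 fold change 4.71) and 1 did not pass (-0.29). Of the markers of other cell types, 2 of 5 fibroblast genes, 1 of 5 leukocyte genes and 1 of 5 endothelial genes had a row. Their summed levels were 1.60 to 2.48, 1.27 to 3.12 and 0.525 to 0.942 CPM in shCon, and 7.38 to 12.4, 1.99 to 4.40 and 4.70 to 6.62 CPM in shSOX4. Both fibroblast genes (log2 fold changes 2.12 and 2.61) and the endothelial gene (3.01) rose, and the leukocyte gene did not pass (0.41). From 7 neuroendocrine markers 1 had a row, and it did not pass (-0.38). The part of these markers in the results was not tested.

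Of the 38 genes, 19 changed in shSOX4, and of these 15 fell and 4 rose (edgeR quasi-likelihood test, Benjamini-Hochberg adjusted p under 0.05 over all features). Over all 13527 features 32.8% changed, 15.8% fell and 17.0% rose. The falls lay mostly in the ATF4 arm, where 12 of 21 genes fell and 1 rose. In the IRE1 and ATF6 arms 3 of 13 fell and 2 rose, close to those shares of all features. Among the 4 eIF2alpha kinases 1 rose and none fell. The median log2 fold change was -0.56 over the ATF4 arm, -0.03 over the IRE1 and ATF6 arms, 0.37 over the kinases and -0.01 over all features. In bulk RNA a change in every cell and a change in the mix of cells cannot be told apart. The number of members that fell was 8 without shSOX4 2 and 9 without shSOX4 3, and the number that rose was 2 without either of them and 7 without both shCon 3 and shSOX4 1. Calls over all features moved as well, from 2295 that rose and 2136 that fell in the main fit. Without shSOX4 2 these were 1411 and 1098, and 1289 fell without shSOX4 3. Without both shCon 3 and shSOX4 1 they were 2890 and 2642.

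**Figure D1:**
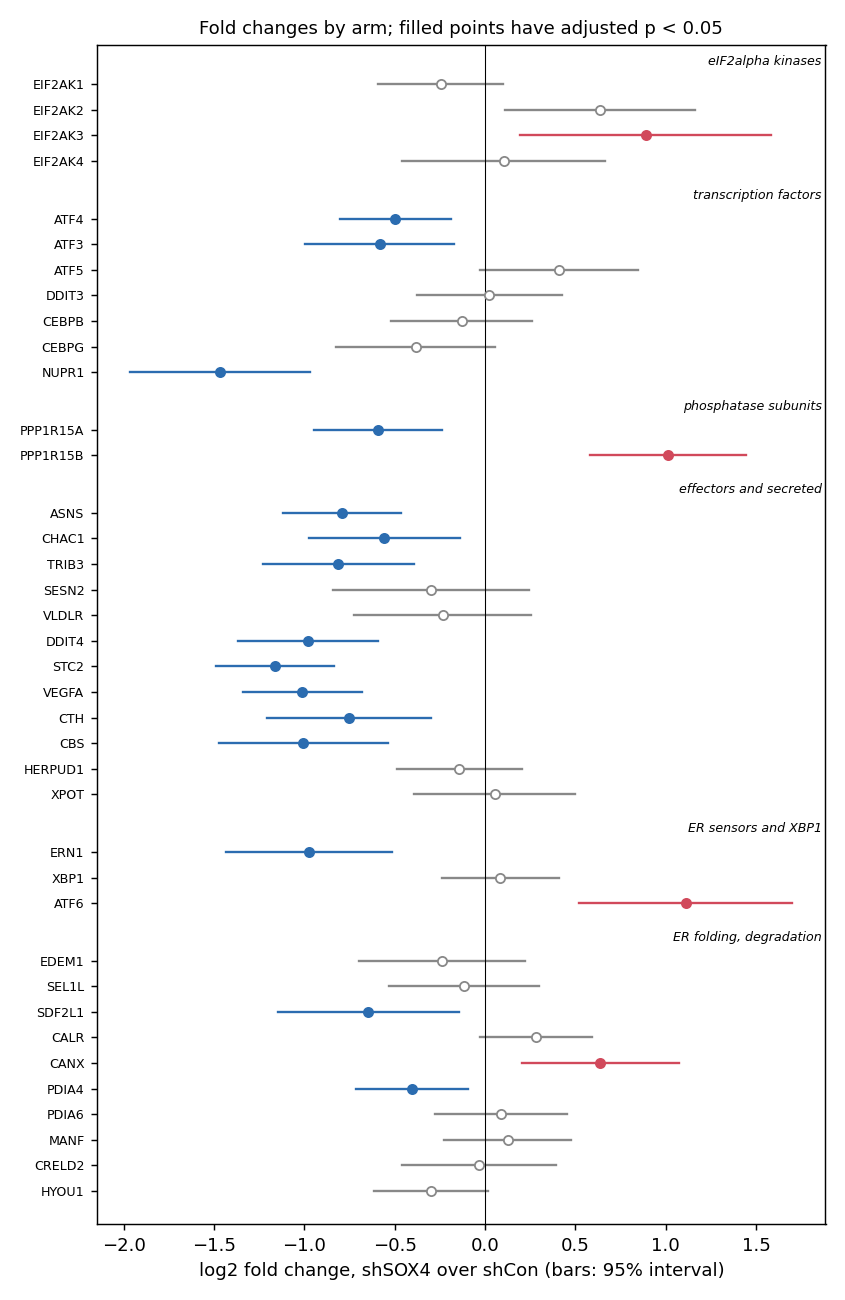
Log2 fold change of shSOX4 over shCon (x axis) for each of the 38 genes, grouped by role, with bars for the 95% interval; filled points passed the test (blue fell, red rose) and open points did not. Of 21 ATF4-arm genes (transcription factors, phosphatase subunits and effectors), 12 lie to the left as filled points, from -0.50 for ATF4 to -1.46 for NUPR1.

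The shift of the ATF4 arm was present in each shSOX4 library. Relative to the mean log2 level of shCon, the median over its 21 genes was -0.48 in shSOX4 1, -0.60 in shSOX4 2 and -0.69 in shSOX4 3, and it stayed between -0.02 and 0.03 in the shCon libraries. For 11 of the 21 genes all shSOX4 values lay under all shCon values, and for 2 all lay above. Over all 38 genes 14 lay under and 7 above, and in 17 the groups overlapped. Over all features the groups did not overlap in 47.0% of cases, in 23.9% with shSOX4 lower and in 23.1% with shSOX4 higher.

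**Figure D2:**
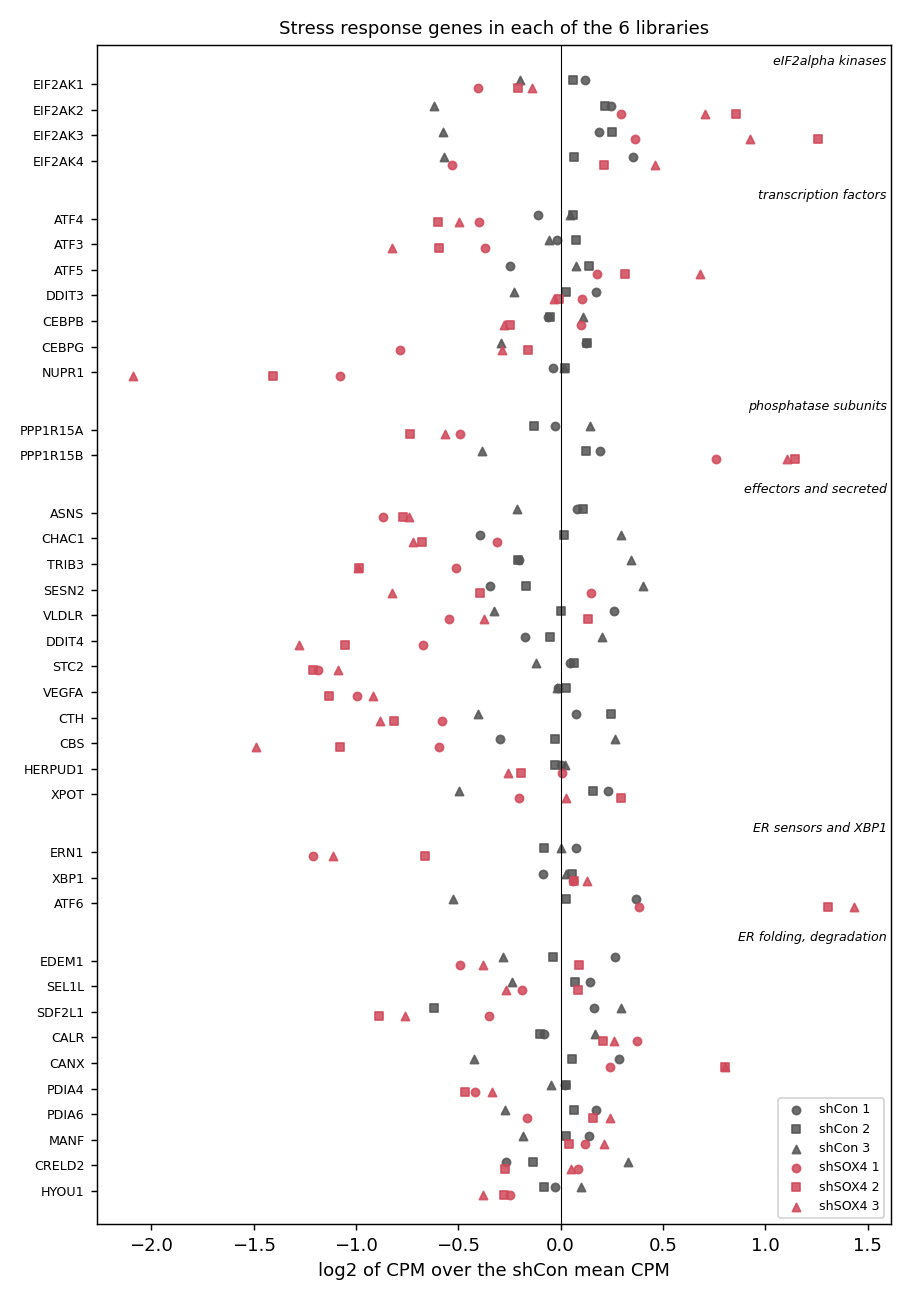
Log2 of the CPM of each library over the mean CPM of the shCon libraries (x axis), for the 38 genes by role; grey points are shCon 1 to 3 and red points shSOX4 1 to 3, with 1 marker shape per replicate number. NUPR1, STC2, VEGFA and ERN1 show the groups wide apart, while DDIT3, PDIA6 and EIF2AK4 show them mixed.

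Among the 7 transcription factors of the arm 3 fell and none rose, against 15.8% and 17.0% of all features. ATF4 (ENSG00000128272), the central activator, stood at 883, 993 and 985 CPM in shCon 1, 2 and 3 and at 723, 629 and 675 CPM in shSOX4 1, 2 and 3. The groups did not overlap, and 70.9% of the control level remained. The log2 fold change was -0.50 (SE 0.143, edgeR-adjusted p = 0.0173). This call was lost on leaving out shCon 2 (-0.47, p after adjustment = 0.0839), without shSOX4 2 (-0.45, p after adjustment = 0.0926) or without shSOX4 3 (-0.49, p after adjustment = 0.0596). With the replicate number as a block it was lost too (-0.50, edgeR-adjusted p = 0.0685). Limma on log2(FPKM + 1) (-0.37, p after adjustment = 0.0551) or log2(FPKM + 0.1) (-0.37, p after adjustment = 0.0566) also lost it. FPKM is the fragment count scaled to transcript length and depth.

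NUPR1 (ENSG00000176046), a small stress-induced nuclear protein, had the largest fall of the 38. Its levels were 36.2, 37.6 and 37.5 CPM in shCon and 17.6, 14.0 and 8.72 CPM in shSOX4, in the order of the replicate numbers, as in all lists of values that follow. The controls were tight and the shSOX4 libraries spread, with shSOX4 3 lowest, and 36.2% remained. The log2 fold change was -1.46 (SE 0.233, edgeR-adjusted p = 0.000435), and it was -1.70 without both libraries that stood apart.

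ATF3 (ENSG00000162772), an early stress-induced bZIP factor, went from 20.3, 21.6 and 19.7 to 15.9, 13.6 and 11.6 CPM. The groups did not overlap, and the log2 fold change of -0.58 (SE 0.192) passed narrowly (edgeR-adjusted p = 0.0313). It was lost on leaving out shCon 1 (-0.59, p after adjustment = 0.0652), shCon 2 (-0.55, p after adjustment = 0.113), shSOX4 2 (-0.58, p after adjustment = 0.112) or shSOX4 3 (-0.47, p after adjustment = 0.137). The other 4 factors did not pass.

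DDIT3 (ENSG00000175197), which encodes the pro-apoptotic factor CHOP, showed no separation, at 21.1, 19.0 and 16.0 CPM in shCon and 20.1, 18.6 and 18.3 CPM in shSOX4. Its log2 fold change was 0.02, with a 95% interval from -0.38 to 0.42. DDIT3 overlaps the methionyl-tRNA synthetase gene in the RefSeq annotation. That neighbour, named MARS in the table, had 695 ± 40.2 CPM in shCon and 358 ± 10.8 CPM in shSOX4 (SD, n = 3 each). How reads of the shared stretch were divided is not known. ATF5, a further bZIP factor that shares its locus with NUP62, had a value of 0.41 (interval -0.03 to 0.84, edgeR-adjusted p = 0.136). Without both shCon 3 and shSOX4 1 it was 0.56 and passed (edgeR-adjusted p = 0.0255). The values of CEBPB and CEBPG, bZIP partners of ATF4, were -0.13 and -0.38, and for each the groups overlapped.

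Both regulatory subunits of the eIF2alpha phosphatase changed, in opposite directions. PPP1R15A (ENSG00000087074, also known as GADD34) is the stress-induced subunit that brings protein phosphatase 1 to eIF2alpha and closes the response, and PPP1R15B (ENSG00000158615, also known as CReP) does so in unstressed cells. PPP1R15A stood at 83.0, 77.3 and 93.4 CPM in shCon and at 60.2, 50.8 and 57.1 CPM in shSOX4. PPP1R15B stood at 26.8, 25.7 and 18.0 CPM in shCon and at 39.8, 52.0 and 50.7 CPM in shSOX4. The groups did not overlap for either gene. PPP1R15A had a log2 fold change of -0.59 (SE 0.166, edgeR-adjusted p = 0.0146), lost on leaving out shSOX4 2 (-0.53, p after adjustment = 0.0971). The rise of PPP1R15B was 1.01 (SE 0.203, edgeR-adjusted p = 0.00215) and passed in each fit that left out 1 library.

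On the authors' FPKM scale, which allows levels of different genes to be compared, PPP1R15A exceeded PPP1R15B by 6.84, 6.68 and 11.5 times in shCon and by 3.34, 2.16 and 2.50 times in shSOX4. This ratio was chosen after its values were seen and was not tested.

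Of the 12 effectors of the ATF4 arm 8 fell and none rose, against 15.8% and 17.0% of all features. Their median log2 fold change was -0.77. They fall into enzymes of amino acid metabolism, brakes on signalling, and secreted factors.

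Among the enzymes, ASNS (ENSG00000070669), asparagine synthetase, stood at 627, 639 and 511 CPM in shCon and at 324, 348 and 354 CPM in shSOX4. The shSOX4 libraries lay close together and well under the controls, with 57.7% remaining (log2 fold change -0.79, SE 0.153, edgeR-adjusted p = 0.00169). CBS (ENSG00000160200), cystathionine beta-synthase of the transsulfuration route from homocysteine to cysteine, went from 163, 196 and 240 to 132, 94.6 and 71.1 CPM (-1.01, SE 0.219, edgeR-adjusted p = 0.00368). The table also holds CBSL, a near-identical copy, at 73.4 ± 10.2 CPM in shCon and 37.7 ± 9.91 CPM in shSOX4 (SD, n = 3 each; log2 fold change -0.96). How reads were divided between the copies is not known, but both rows were lower. CTH (ENSG00000116761), the next enzyme of that route, went from 21.3, 24.0 and 15.3 to 13.6, 11.5 and 11.0 CPM. It had a log2 fold change of -0.75 (SE 0.212, edgeR-adjusted p = 0.0154), and without both libraries that stood apart, among them shCon 3, the lowest control, it was -1.01. The call was lost on leaving out shCon 2 (-0.61, p after adjustment = 0.0861), shSOX4 2 (-0.72, p after adjustment = 0.0708) or shSOX4 3 (-0.68, p after adjustment = 0.0686).

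CHAC1 (ENSG00000128965), which breaks down glutathione, stood at 89.9, 119 and 145 CPM in shCon and at 95.3, 73.9 and 71.6 CPM in shSOX4. The groups overlapped through shCon 1 and shSOX4 1, and the call was narrow (log2 fold change -0.56, edgeR-adjusted p = 0.0414). It was lost on leaving out shCon 2 (-0.55, p after adjustment = 0.0859), shCon 3 (-0.38, p after adjustment = 0.123), shSOX4 2 (-0.50, p after adjustment = 0.157) or shSOX4 3 (-0.47, p after adjustment = 0.140), and by limma-voom (p after adjustment = 0.0512).

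TRIB3 (ENSG00000101255), a pseudokinase that restrains AKT and ATF4 itself, went from 159, 159 and 233 to 129, 92.7 and 92.5 CPM (-0.81, SE 0.196, edgeR-adjusted p = 0.00672). DDIT4 (ENSG00000168209), also called REDD1, an inhibitor of mTORC1, went from 508, 553 and 660 to 360, 277 and 236 CPM (-0.98, SE 0.181, edgeR-adjusted p = 0.00127). Neither gene had overlapping groups, and in both shCon 3 was the highest control and shSOX4 1 the highest knockdown library. SESN2, a sestrin that also restrains mTORC1, showed the same order of libraries but overlapped, at 29.1, 32.9 and 48.9 against 41.0, 28.1 and 20.9 CPM. Its value was -0.30 (interval -0.84 to 0.24, edgeR-adjusted p = 0.379).

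The secreted factors gave the most separated groups. STC2 (ENSG00000113739), stanniocalcin 2, stood at 179, 181 and 159 CPM in shCon and at 76.0, 74.7 and 81.4 CPM in shSOX4. With 44.7% remaining, its log2 fold change of -1.16 (SE 0.153) had the smallest adjusted p of the 38 genes (8.84e-05, edgeR). VEGFA (ENSG00000112715), the angiogenic growth factor, stood at 136, 139 and 135 CPM in shCon and at 68.5, 62.4 and 72.4 CPM in shSOX4 (-1.01, SE 0.154, edgeR-adjusted p = 0.000313). Within each group these libraries differed little, those that stood apart included. The lipoprotein receptor gene VLDLR, HERPUD1, which helps degrade proteins of the endoplasmic reticulum, and the tRNA exporter gene XPOT had values of -0.23, -0.14 and 0.05, each with overlapping groups. Their 95% intervals ran from -0.72 to 0.26, from -0.49 to 0.20 and from -0.39 to 0.50.

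ATF4 and C/EBP factors bind together at composite sites known as C/EBP-ATF response elements. The letters TGATGNAA were searched on both strands of RefSeq promoter windows (GRCh38.p14, 250 bases before to 50 after a transcript start), of which 3.62% of 35116 held a match. The 35 members with an entry had 53 windows, and 6 of these members had a match. This count of genes is not on the same scale as the share of windows. The matched windows are shown because these 6 genes did not move together. Capitals mark the match, which reads as the reverse complement where it lies on the opposite strand. The windows are written along the gene's own strand.
ASNS, chr7:97872443-97872502, minus strand: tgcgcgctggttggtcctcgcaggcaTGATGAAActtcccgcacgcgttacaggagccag
CHAC1, chr15:40953236-40953295, plus strand: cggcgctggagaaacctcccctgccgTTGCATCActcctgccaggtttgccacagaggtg
ATF3, chr1:212565190-212565249, plus strand: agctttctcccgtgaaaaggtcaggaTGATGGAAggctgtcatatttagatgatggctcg
PPP1R15B, chr1:204412008-204412067, minus strand: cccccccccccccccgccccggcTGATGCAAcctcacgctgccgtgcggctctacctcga
CEBPG, chr19:33374060-33374089, plus strand: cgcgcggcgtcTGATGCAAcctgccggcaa
HERPUD1, chr16:56931940-56931999, plus strand: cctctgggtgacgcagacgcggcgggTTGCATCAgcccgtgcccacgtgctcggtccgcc
The match begins 68 bases before the start in ASNS, 209 in CHAC1, 191 in ATF3, 227 in PPP1R15B, 42 in CEBPG and 176 in HERPUD1. Of these, ASNS, CHAC1 and ATF3 fell, PPP1R15B rose, and CEBPG and HERPUD1 did not pass. Among all features 15.8% fell and 17.0% rose. A match is a description of these letters and not a shown binding site. VEGFA, EIF2AK1 and NUPR1 had no entry in the promoter table.

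The 4 eIF2alpha kinases sense different stresses. EIF2AK1 (HRI) responds to low haem and to signals from mitochondria, EIF2AK2 (PKR) to double-stranded RNA, EIF2AK3 (PERK) to misfolded protein in the endoplasmic reticulum, and EIF2AK4 (GCN2) to lack of amino acids. On the FPKM scale EIF2AK1 had the most transcript in all 6 libraries, at 25.5 ± 4.30 in shCon and 21.5 ± 2.27 in shSOX4 (SD, n = 3 each). EIF2AK4 followed with 7.37 ± 2.58 and 7.94 ± 2.57 FPKM, then EIF2AK2 with 1.20 ± 0.415 and 1.84 ± 0.414 FPKM, and EIF2AK3 with 0.445 ± 0.152 and 0.831 ± 0.276 FPKM. This order was the same in each library. EIF2AK1 made up 71.0, 73.7 and 78.7% of the summed kinase FPKM in shCon and 73.1, 65.3 and 64.3% in shSOX4.

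EIF2AK3 (ENSG00000172071) was the kinase gene that rose, from 2.52, 2.63 and 1.49 to 2.85, 5.29 and 4.20 CPM. These are few counts, the shSOX4 1 value lay barely above shCon 2, and the log2 fold change of 0.89 (SE 0.324) passed narrowly (edgeR-adjusted p = 0.0483). Its call was lost on leaving out shCon 1 (0.99, p after adjustment = 0.0658), shCon 2 (1.03, p after adjustment = 0.0543), shCon 3 (0.68, p after adjustment = 0.139), shSOX4 2 (0.67, p after adjustment = 0.212) or shSOX4 3 (0.88, p after adjustment = 0.109), and under total-count scaling, limma-voom or without loci named newGene.

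EIF2AK2 (ENSG00000055332) stood at 14.8, 14.5 and 8.10 CPM in shCon and at 15.3, 22.5 and 20.3 CPM in shSOX4. The groups did not overlap in CPM, but in FPKM shSOX4 1 (1.39) lay under shCon 1 (1.49). The value of 0.64 missed the threshold (interval 0.11 to 1.16, edgeR-adjusted p = 0.0602). It passed with DESeq2 (p after adjustment = 0.0320), without shSOX4 1 (0.79, p after adjustment = 0.0143) and without both shCon 3 and shSOX4 1 (0.55, p after adjustment = 0.0145). EIF2AK1 (ENSG00000086232) stood at 132, 127 and 106 against 92.2, 105 and 111 CPM, a value of -0.25 (interval -0.59 to 0.10). EIF2AK4 (ENSG00000128829) stood at 54.7, 44.8 and 28.8 against 29.6, 49.5 and 58.8 CPM, a value of 0.10 (interval -0.46 to 0.67). In EIF2AK4 the lowest library of each group was the one that stood apart, shCon 3 or shSOX4 1, and both lay near 29 CPM.

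**Figure D3:**
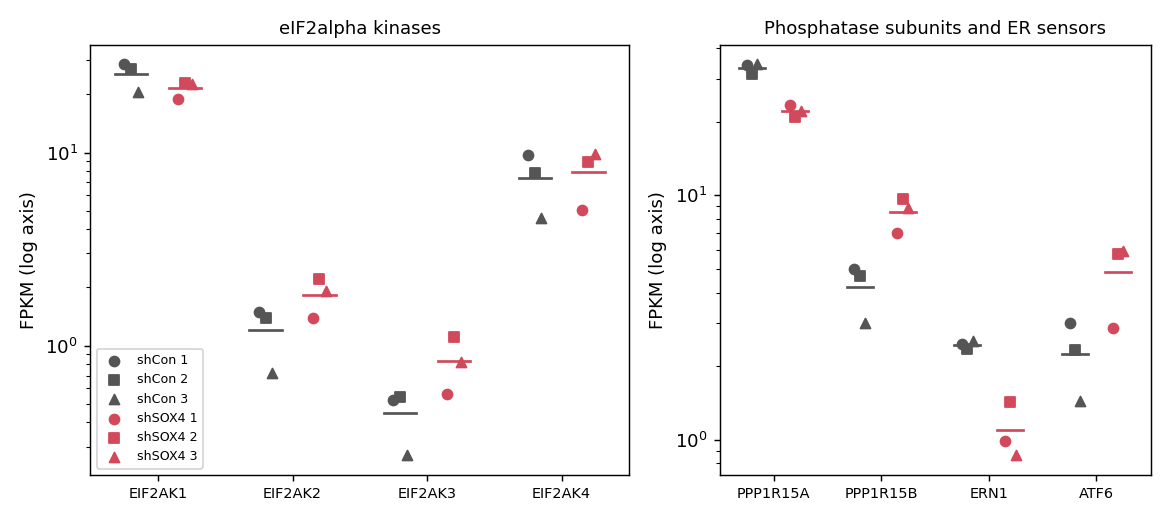
FPKM on a log axis for the 4 eIF2alpha kinases (left) and for PPP1R15A, PPP1R15B, ERN1 and ATF6 (right); points are single libraries (grey shCon, red shSOX4, 1 shape per replicate number) and lines are means of 3 libraries. EIF2AK1 lies highest among the kinases in every library, PPP1R15A and ERN1 are lower in shSOX4, and PPP1R15B and ATF6 have higher means, although on this scale shSOX4 1 lies just under shCon 1 for ATF6.

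The sensors of the IRE1 and ATF6 arms also went apart. ERN1 (ENSG00000178607), which encodes the kinase and endonuclease IRE1alpha, stood at 14.3, 12.8 and 13.6 CPM in shCon and at 5.87, 8.57 and 6.28 CPM in shSOX4. It fell to 50.8% of its control level (log2 fold change -0.98, SE 0.215, edgeR-adjusted p = 0.00388). ATF6 (ENSG00000118217), the membrane-bound factor that is released by cleavage, stood at 23.1, 18.2 and 12.4 CPM in shCon and at 23.4, 44.4 and 48.5 CPM in shSOX4. Its rise of 1.11 (SE 0.276, edgeR-adjusted p = 0.00800) passed in each fit that left out 1 library, but the groups met, with shSOX4 1 just above shCon 1. Without both shCon 3 and shSOX4 1 the value was 1.17 for ATF6 and -0.87 for ERN1, and both passed. The ratio of ATF6 to ERN1 in FPKM, chosen after its values were seen and not tested, was 1.22, 0.988 and 0.569 in shCon and 2.90, 4.04 and 6.86 in shSOX4.

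XBP1 (ENSG00000100219), whose mRNA IRE1 splices, stood at 92.4, 102 and 99.7 CPM in shCon and at 102, 102 and 107 CPM in shSOX4. The shSOX4 libraries all lay above the controls, though shCon 2 and shSOX4 1 are equal after rounding. The value was 0.09, with an interval from -0.24 to 0.41 (edgeR-adjusted p = 0.694), and these counts do not tell the spliced from the unspliced form.

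Of the 10 genes of folding and degradation in the endoplasmic reticulum 2 fell and 1 rose, against 15.8% and 17.0% of all features, and 7 did not pass. CANX (ENSG00000127022), the membrane lectin chaperone calnexin, stood at 298, 254 and 182 CPM in shCon and at 289, 426 and 426 CPM in shSOX4. The groups overlapped through shCon 1 and shSOX4 1, and the log2 fold change was 0.64 (SE 0.204, edgeR-adjusted p = 0.0275). It was lost on leaving out shCon 3 (0.47, p after adjustment = 0.0637), shSOX4 2 (0.55, p after adjustment = 0.116) or shSOX4 3 (0.56, p after adjustment = 0.105), by limma on FPKM with either pseudocount, and under total-count scaling (p after adjustment = 0.0538).

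CALR, the soluble partner calreticulin, stood at 838, 827 and 997 against 1148, 1023 and 1061 CPM. The groups did not overlap, but the value of 0.28 did not pass (interval -0.03 to 0.59, edgeR-adjusted p = 0.150). It passed without shCon 3 and without both shCon 3 and shSOX4 1, where it was 0.33 (edgeR-adjusted p = 0.0371).

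PDIA4 (ENSG00000155660), a disulfide isomerase, was very even within groups, at 307, 308 and 293 against 227, 219 and 240 CPM. Its fall was small (log2 fold change -0.41, SE 0.145, edgeR-adjusted p = 0.0448). The call was lost on leaving out shCon 1 (-0.40, p after adjustment = 0.0927), shCon 2 (-0.39, p after adjustment = 0.149), shSOX4 1 (-0.39, p after adjustment = 0.0973), shSOX4 2 (-0.38, p after adjustment = 0.175) or shSOX4 3 (-0.43, p after adjustment = 0.0865), and under RLE scaling. SDF2L1 (ENSG00000128228), a cofactor of the chaperone BiP, stood at 66.9, 38.9 and 73.3 against 46.8, 32.3 and 35.3 CPM, with shCon 2 inside the range of the shSOX4 libraries. Its log2 fold change of -0.65 (SE 0.235) passed narrowly (edgeR-adjusted p = 0.0469). That call was lost on leaving out shCon 1 (-0.56, p after adjustment = 0.125), shCon 3 (-0.47, p after adjustment = 0.130), shSOX4 2 (-0.54, p after adjustment = 0.181) or shSOX4 3 (-0.58, p after adjustment = 0.140). It was also lost under RLE or total-count scaling, by limma-voom, by limma on FPKM with either pseudocount, and among features whose mean reached 5 CPM.

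The remaining 6 genes lay between -0.30 and 0.12. They were HYOU1, a large chaperone (-0.30, interval -0.62 to 0.02), EDEM1 and SEL1L of the degradation route (-0.24 and -0.12), CRELD2 (-0.03), the disulfide isomerase gene PDIA6 (0.09) and the secreted factor MANF (0.12). HYOU1 had groups that did not overlap, at 266 to 301 CPM in shCon and 215 to 236 CPM in shSOX4.

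XBP1 and ATF6 act through the ER stress response element. Its letters, CCAAT and then CCACG with 9 bases of any kind between them, were found in 0.0769% of the 35116 promoter windows and in 5 members, namely CALR, CANX, CRELD2, PDIA6 and XBP1. The related element II, ATTGG and CCACG with 1 base of any kind between them, was found in 0.0541% of windows and in 3 members, HYOU1 (at 2 places), HERPUD1 and SDF2L1. Both motifs were searched on both strands. The 35 members with an entry had 53 windows, so these counts of members are not on the same scale as the shares of windows. The members include classical targets from which these elements were described, so the high share is background knowledge and not a result. The windows of genes that did and did not move are shown side by side, with the match in capitals.
CANX, chr5:179698773-179698802, plus strand: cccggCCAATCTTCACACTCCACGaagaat
SDF2L1, chr22:21642090-21642149, plus strand: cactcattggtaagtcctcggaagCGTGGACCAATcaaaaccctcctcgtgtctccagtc
CALR, chr19:12938364-12938423, plus strand: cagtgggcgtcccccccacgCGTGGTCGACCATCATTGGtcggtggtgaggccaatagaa
XBP1, chr22:28800582-28800641, minus strand: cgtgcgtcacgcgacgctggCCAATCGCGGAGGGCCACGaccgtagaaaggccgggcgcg
HERPUD1, chr16:56932001-56932060, plus strand: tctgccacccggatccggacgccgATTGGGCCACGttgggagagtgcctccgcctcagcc
Among the 8 members with either element, CANX rose, SDF2L1 fell and the other 6 did not pass. The shares of all features were 17.0% that rose and 15.8% that fell, so these counts are close to them. HERPUD1 holds both a C/EBP-ATF element and an element II, and its log2 fold change was -0.14.

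Other genes of the same pathways, taken from lists of textbook members, were set beside these values. Because these lists too were chosen with earlier results of these data known, they are no independent check on the members. Among 27 further ATF4 targets with a row (of 30 listed), 14 fell and 2 rose, against 15.8% and 17.0% of all features, with a median log2 fold change of -0.55. PCK2, mitochondrial phosphoenolpyruvate carboxykinase, fell from 188 ± 39.6 to 69.9 ± 21.4 CPM (SD, n = 3 each; -1.43, edgeR-adjusted p = 0.000375). The serine transporter gene SLC1A4 fell by 1.24 and AARS, for alanyl-tRNA synthetase, fell by 0.98 on the log2 scale. The 2 that rose were GDF15, a stress-induced cytokine, from 1.93 ± 0.723 to 10.4 ± 1.22 CPM (2.42, edgeR-adjusted p = 3.46e-05), and SLC38A2, an amino acid transporter gene (0.89, edgeR-adjusted p = 0.00245).

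All 10 listed genes for eIF2, its exchange factor eIF2B and the initiation factors EIF2A and EIF2D were measured. Of these 3 rose and none fell, against 17.0% and 15.8% of all features. EIF2S1, which encodes eIF2alpha, the substrate of the kinases, stood at 61.6, 55.9 and 44.7 CPM in shCon and at 92.1, 136 and 143 CPM in shSOX4 (1.20, SE 0.200, edgeR-adjusted p = 0.000619). EIF2B3, a subunit of the exchange factor, rose by 1.24 and the initiation factor gene EIF2A by 1.00. Without shCon 1 or without shSOX4 1, 4 of the 10 rose.

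Among 28 further genes of folding and degradation in the endoplasmic reticulum (of 31 listed), 7 rose and 1 fell, with a median of 0.38. Over all features 17.0% rose and 15.8% fell. SSR1, a subunit of the translocon-associated complex, rose by 1.08, EDEM3, a mannosidase of the degradation route, by 1.27 and the co-chaperone gene DNAJC10 by 0.76. EDEM2, a relative of EDEM3, fell by 0.64 on the log2 scale, a call lost on leaving out shSOX4 2 (-0.62, p after adjustment = 0.0555). HSPA5, which encodes the central chaperone BiP, had 570 ± 101 CPM in shCon and 570 ± 44.3 CPM in shSOX4 (SD, n = 3 each), with an interval from -0.35 to 0.35 on the log2 scale. HSP90B1, the chaperone GRP94, rose by 0.64 (edgeR-adjusted p = 0.0171), a call lost on leaving out shCon 2 (0.60, p after adjustment = 0.0564) or shSOX4 2 (0.58, p after adjustment = 0.0833). The number that rose was 3 without shSOX4 2, 4 without shCon 1 or shSOX4 3, and 12 without both shCon 3 and shSOX4 1.

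**Figure D4:**
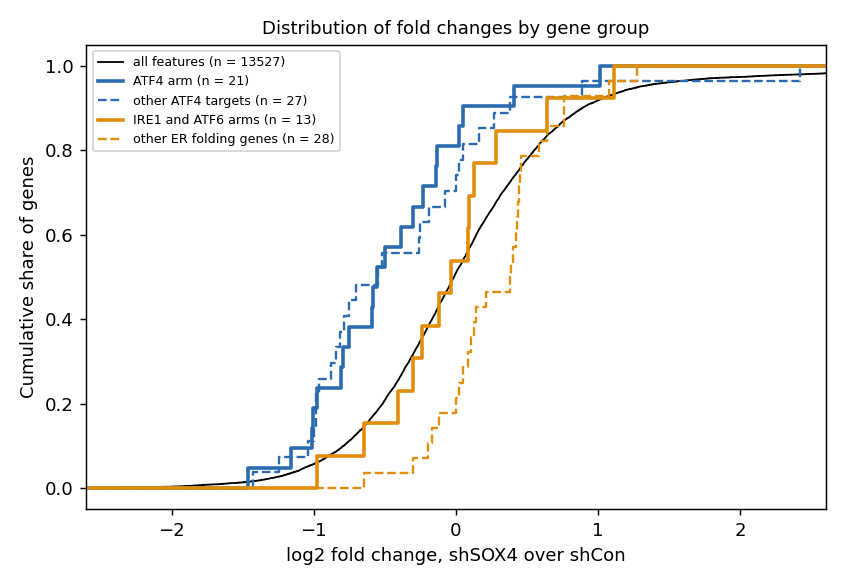
Cumulative share of genes (y axis) at or under each log2 fold change of shSOX4 over shCon (x axis), for all 13527 features, the 21 genes of the ATF4 arm, 27 other ATF4 targets, the 13 genes of the IRE1 and ATF6 arms and 28 other genes of folding and degradation in the endoplasmic reticulum. The ATF4 curves lie to the left of all features (medians -0.56 and -0.55 against -0.01), the IRE1 and ATF6 curve follows all features (-0.03), and the other folding genes lie to the right (0.38).

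Of 11 other sensors and membrane-cleaved factors 1 rose and 3 fell, against 17.0% and 15.8% of all features. MBTPS2, the site-2 protease that makes the last cut in ATF6, rose from 4.49 ± 1.10 to 14.2 ± 0.944 CPM (SD, n = 3 each; 1.66, edgeR-adjusted p = 0.000143). MBTPS1, the site-1 protease that cuts first, had a log2 fold change of -0.43 (edgeR-adjusted p = 0.0403), ATF6B, the relative of ATF6, -0.50 (edgeR-adjusted p = 0.0465) and CREB3L4, another membrane-bound bZIP factor, -0.87 (edgeR-adjusted p = 0.00362). The MBTPS1 call was lost on leaving out any library but shCon 3, with values from -0.45 (shSOX4 2) to -0.38 (shSOX4 1), and the ATF6B call on leaving out any library but shSOX4 1, with values from -0.57 (shCon 1) to -0.38 (shSOX4 3). The number that fell was then 1 without shCon 1, shCon 2, shSOX4 2 or shSOX4 3, and 2 rose without shCon 1.

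Of 10 listed genes of mitochondrial stress 9 had a row, all for proteases and chaperones, and KIAA0141 had none. Of the 9, 3 rose and 2 fell, against 17.0% and 15.8% of all features. The chaperonin genes HSPD1 and HSPE1 rose by 0.98 and 0.89 on the log2 scale, and LONP1 and CLPP, for proteases of the mitochondrial matrix, fell by 0.86 and 0.54. YME1L1, an inner-membrane protease, rose by 0.62 (edgeR-adjusted p = 0.0371), a call lost on leaving out shCon 2, shCon 3, shSOX4 2 or shSOX4 3, where its value was 0.68, 0.44, 0.46 and 0.65. The CLPP call was lost on leaving out shCon 3, shSOX4 2 or shSOX4 3, where its value was -0.37, -0.45 and -0.47, and the number that fell was 1 without either of the latter pair.

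VEGFA, DDIT4 and STC2 are also induced by low oxygen. Of 14 other hypoxia targets 3 rose and 3 fell, against 17.0% and 15.8% of all features, with a median of -0.12. ADM, adrenomedullin, rose by 1.77 and the lysyl oxidase gene LOX by 0.92, while NDRG1 fell by 1.03 and the glucose transporter gene SLC2A1 by 0.62 on the log2 scale. Without shSOX4 2, 1 of these rose and 1 fell, and LOX (0.79, p after adjustment = 0.0691) and SLC2A1 (-0.56, p after adjustment = 0.0832) were among the calls lost.

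The libraries that stood apart moved many of the 38 genes by an amount that went with transcript length. In both shCon 3 and shSOX4 1, 17 genes lay under the mean log2 level of their group's other libraries and 14 lay above. The direction was shared for 81.6% of the 38 genes, against 76.7% of all features. ATF6, EIF2AK4 and EIF2AK2 were among the lowest and SESN2, CBS and TRIB3 among the highest. The rank correlation between this offset and the length implied by count and FPKM was -0.65 across the 38 genes and -0.25 across all features, where genes share the same libraries and are not replicates.

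Length also went with the comparison of groups. Of the 38 genes, the 15 with at least 4 kb held all 4 rises and 2 falls (STC2 and ERN1), and the 23 shorter ones held 13 falls and no rise. Over all features 21.9% of those with at least 4 kb rose and 12.8% fell, and of the shorter ones 14.5% rose and 17.3% fell. The rank correlation of the log2 fold change with length was weak, 0.23 across the 38 genes and 0.12 across all features. The split at 4 kb was chosen after the values were seen, and the part of length in these results was not tested. Without both shCon 3 and shSOX4 1, 15 of the 38 fell and 7 rose, and of all 13527 features 2642 fell and 2890 rose.

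**Figure D5:**
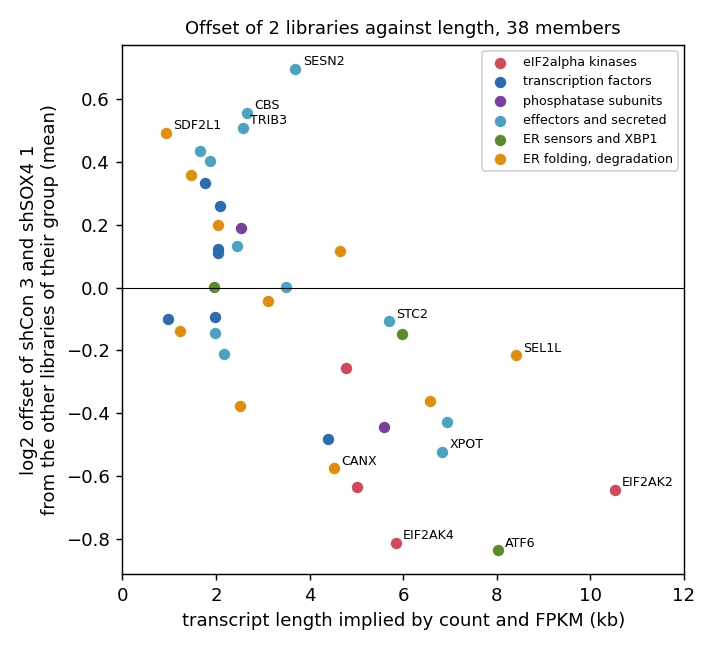
Mean log2 offset of shCon 3 and shSOX4 1 from the other 2 libraries of their own group (y axis) against the transcript length implied by count and FPKM in kb (x axis), 1 point per gene for the 38 genes, coloured by role. Long transcripts such as ATF6 (8.03 kb) and EIF2AK2 (10.5 kb) lie under 0 and several of under 4 kb, such as CBS and TRIB3, lie above it.

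By the authors' deposited table, adjusted p was under 0.05 for 20 of the 38 genes, of which 5 were higher and 15 lower in shSOX4. In the authors' deposited table the shares of all features were 37.0%, 19.2% higher and 17.8% lower. The 20 include all 19 called here, in the same direction, and EIF2AK2. Log2 fold changes in the authors' deposited table were, for example, -1.12 for STC2, -1.37 for NUPR1, 0.97 for PPP1R15B and 1.03 for ATF6.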

How the data were processed

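RNA-seq of poly-A selected RNA from DU145 cells was used (the labels' protocols describe a TruSeq and a Hieff kit, and do not say which made these libraries), with 3 shCon and 3 shSOX4 libraries of 31189910 to 43361609 counts. Columns of the 1 deposited table marked NC and SH were taken for shCon and shSOX4 and keep the replicate numbers of the labels. Per the file headers, the deposited values are counts per gene, FPKM scaled by the authors to length and depth, the authors' adjusted p-value (FDR) and the authors' log2 fold change. No aligner or counter, with its strand setting and annotation, is tied to these values in the sources used here. Build hg19, HISAT2 and STAR are named, without roles, per the submitters' processing notes. Of the features, 1116 are loci named newGene.

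The counts were tested with edgeR 4.0.16 under R 4.3.3 (TMM factors, then filterByExpr, which kept all 13527 features, quasi-likelihood F test, two-sided, group as the only term), with Benjamini-Hochberg adjustment over all features and a threshold of 0.05. SE and 95% intervals come from that fit. The test was checked on simulated counts. Separate cultures for the libraries within a group are nowhere stated, so a p-value reflects spread among these libraries only, possibly technical. Libraries within a group differed by more than sampling noise (chi-square per degree of freedom 28.7 to 139). Promoter sequences are from RefSeq (GRCh38.p14), with 35 of 38 genes matched by symbol.

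Members and lists were chosen with earlier results of these data known. Every member is accounted for. Values per library are given for each called member and for sensors, kinases and phosphatase subunits. From each context list up to 4 called genes with the smallest adjusted p are named, mostly by log2 fold change alone, with HSPA5 and HSP90B1. A few named beyond that were chosen after their values were seen (YME1L1, SLC38A2, CBSL and MARS among them). The alternatives tried were scaling by RLE or by total count, no filter, a mean of at least 5 CPM, DESeq2 1.42.0, limma-voom (limma 3.58.1), limma on log2(FPKM + 1) or log2(FPKM + 0.1) over features whose mean FPKM reached 1, the replicate number as a block, leaving out each library, leaving out shCon 3 and shSOX4 1 together, and leaving out newGene loci.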

Additional observations from a re-analysis of the deposited data

How the results depend on the processing

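Each count below is of genes past the threshold, and its cause under an alternative was not tested. Where a fit has no count over all features beside it, its counts of members and lists have no share to be read against. Whether such counts follow a change in calls over the whole table is then not shown. With both shCon 3 and shSOX4 1 left out, 7 members rose in place of 4, including 2 kinases, 2 folding genes and 1 transcription factor of the ATF4 arm (main counts 1, 1 and 0), and 12 of the other folding genes rose in place of 7. Over all features 2890 rose and 2642 fell in that fit, in place of 2295 and 2136. By DESeq2, 2 kinases, 11 other folding genes and 2 other sensors rose. Under total-count scaling, 2 members rose, with 0 kinases and 0 folding genes, and 1 folding gene fell in place of 2. Limma on log2(FPKM + 1) and on log2(FPKM + 0.1) each gave 2 members that rose, 0 kinases, 0 folding genes, 1 folding gene that fell and 1 hypoxia target that rose in place of 3. With log2(FPKM + 0.1), 1479 features rose in place of 2295, and SOX4 was -0.81 and did not pass. With RLE scaling 0 folding genes fell. Among features whose mean reached 5 CPM, and by limma-voom, 0 kinases rose and 1 folding gene fell, and without newGene loci 0 kinases rose. The minimums of 5 CPM and of mean FPKM removed EIF2AK3, the kinase called with all features, so the 0 kinases there, and its absence from the members that rose, are set by the filter and are no lost call.

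Leaving out each library in turn gave 1411 to 2653 features that rose and 1098 to 2313 that fell, and 2 to 5 members that rose and 8 to 14 that fell. By role, 0 to 2 kinases rose, 1 to 3 transcription factors, 0 to 1 phosphatase subunits and 6 to 8 effectors fell, and 0 to 1 folding genes rose and 0 to 1 fell. In the other lists the counts were 3 to 4 for eIF2 and eIF2B genes that rose, 2 to 3 other ATF4 targets that rose and 13 to 14 that fell, 3 to 9 other folding genes that rose and 0 to 1 that fell, 1 to 2 other sensors that rose and 1 to 2 that fell, 2 to 3 mitochondrial genes that rose and 1 to 2 that fell, and 1 to 3 hypoxia targets that rose and 1 to 4 that fell. SOX4 lay between -1.02 and -0.71.

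The sign turned for 5 members, none of which passed with all 6 libraries. Leaving out 1 library gave from -0.076 (shCon 3) to 0.12 for DDIT3, from -0.14 (shCon 3) to 0.19 for XPOT, from -0.11 (shCon 3 and, alike, shSOX4 3) to 0.35 for EIF2AK4, from -0.029 (shCon 3) to 0.21 for PDIA6 and from -0.15 to 0.17 (shCon 3) for CRELD2. With both shCon 3 and shSOX4 1 left out DDIT3 was -0.12, XPOT -0.026 and CRELD2 0.10.

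Correlations of deviations from the group means were -0.39, 0.15 and -0.36 for replicate numbers 1, 2 and 3. Each group mean came from 3 libraries, so these values cannot show whether equal numbers were paired. No sample correlated best with its own number. The highest correlation, 0.57, was between shCon 3 and shSOX4 1, the libraries that stood apart. With the number as a block, 9 members fell in place of 15, with 1 transcription factor, 0 phosphatase subunits and 0 folding genes among them. The falls of ATF4, ATF3, PPP1R15A, CHAC1, PDIA4 and SDF2L1 did not pass there. In that fit 0 kinases rose, and 1 other sensor and 1 mitochondrial gene fell. Its calls over all features are not given here, so these counts have no share to be read against.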
